A study of Caenorhabditis elegans with 4 samples.

Results

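Broad binding regions were examined in a chromatin immunoprecipitation and sequencing (ChIP-seq) study of a GFP-tagged transcription factor in the nematode Caenorhabditis elegans. The regions were chosen by their measured width alone: a peak of the combined peak list was called broad where it was 1000 to 10000 bp wide. There were 538 such regions among 6333 combined peaks (8.5%). The other 5795 peaks are called the remaining peaks. Because width chose the regions, widths and the significance values that go with them are given as a description. Positions and distances were compared with the remaining peaks as shares with exact (Clopper-Pearson) 95% intervals, and no p-value was computed, since regions of the same libraries are not replicates and neighbouring peaks are not independent.

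All samples came from third-stage (L3) hermaphrodite larvae of strain OP241, grown at 20 degrees Celsius. The strain has the unc119(ed3) allele and the transgene wgIs241, which was introduced by bombardment and holds ceh-38 with a TY1 EGFP FLAG tag beside unc119. The ChIP and input groups share all of these alleles, and the strain description gives the fusion protein the expression pattern of ceh-38 itself. The group of 2 anti-GFP ChIP samples was used here, each with a peak list of its own and both together in the combined list. The input group of 2 samples was not analysed here. The labels do not agree on the factor, since titles give CEH-28 and the strain and genotype give ceh-38, so it is called the tagged factor. Chromatin was taken from whole larvae, so the cell types in which a region was bound cannot be told apart.

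ceh-38 encodes a ONECUT protein, with a cut domain and a homeodomain that both contact DNA, and ceh-28 encodes an NK-2 class homeodomain protein. A single short binding site usually gives a narrow ChIP-seq peak, set by the length of the sheared fragments. Wider peaks are known from stretches with several sites close together and, in this species, from regions bound by many factors at once. The C. elegans autosomes have a gene-dense centre between repeat-rich arms, and this division is weaker on the X chromosome.

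Positions are on WormBase WS180. The broad regions were a minority of the peaks but a large share of the sequence within peaks. They covered 834 kb, or 25.9% of the 3222 kb in the combined list. Their median width was 1331 bp (quartiles 1138 and 1698), against 374 bp for the remaining peaks. Most lay near the lower limit, with 345 of 1000 to under 1500 bp, 116 of 1500 to under 2000 bp, 52 of 2000 to under 3000 bp and 25 of 3000 bp or more. The widest was 6806 bp. A single combined peak was above the upper limit, on chromosome II from 6939193 to 6962185 (22993 bp), and is not counted among the broad regions.

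The lower limit did not fall at a break in the width distribution. The 94 regions of 1000 to under 1100 bp had a median −log10 q of 24.5, and the 134 peaks of 900 to under 1000 bp had 21.7. A −log10 q is the negative decimal logarithm of the q-value that the authors' peak caller gave to a peak, so a higher value is a stronger call. The 3 narrowest members were 1000, 1000 and 1002 bp wide, with −log10 q of 24.5 on chromosome I, 97.4 on IV and 41.5 on II. The 3 widest peaks below the limit were all 999 bp wide, with 11.5 and 11.3 on I and 13.2 on V.

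The replicates gave broad peaks in different numbers when the same width rule was applied to their own lists. Replicate 1 held 238 of 4082 peaks (5.83%, exact 95% interval 5.13 to 6.59) and replicate 2 held 358 of 2867 (12.5%, 11.3 to 13.8). The mean share was 9.16% ± 4.71 (SD, n = 2). The broad peaks of replicate 1 had a median width of 1297 bp and those of replicate 2 of 1312.5 bp (1305 bp ± 10.96, SD, n = 2). These medians follow in part from the lower limit on width, which all of the peaks had to pass. Their libraries' depths are unknown, since the lists hold no read counts.

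**Figure D1:**
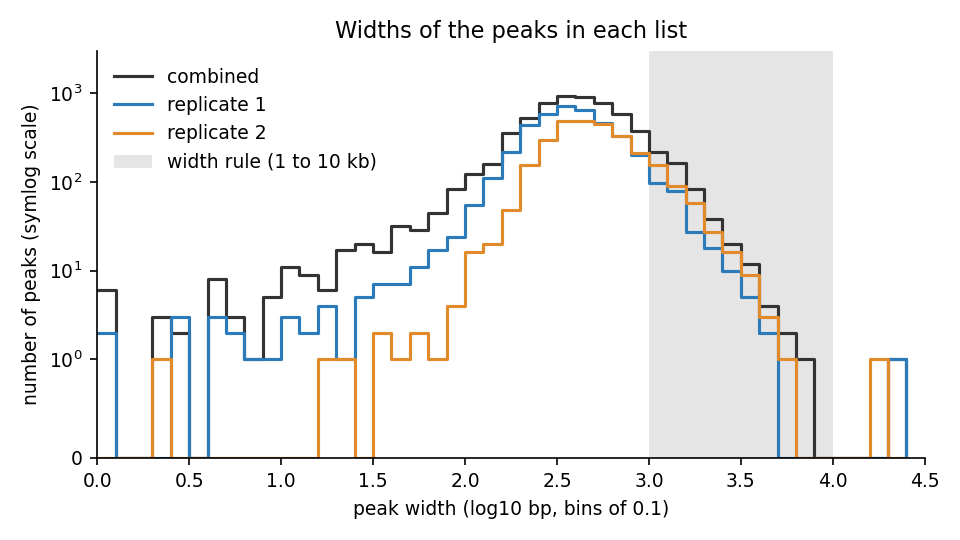
Number of peaks (vertical axis, symmetric log scale) by width (horizontal axis, log10 of bp in bins of 0.1) in the combined list and in each replicate list, with the width rule of 1 to 10 kb shaded. The curves run without a break through 1 kb, and each list has a single peak beyond 10 kb.

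The next question was whether a broad region was a single peak or several in the replicates, at an overlap of at least 1 bp. Of the 538 regions, 486 (90.3%, 87.5 to 92.7) overlapped a peak in both replicates, 26 only in replicate 1 and 16 only in replicate 2. Of all combined peaks, 59.3% overlapped a replicate 1 peak, 43.4% a replicate 2 peak and 38.4% both. In 376 regions (69.9%, 65.8 to 73.7) each replicate had exactly 1 peak, against 36.3% of all combined peaks. In 114 (21.2%, 17.8 to 24.9) at least 1 replicate had several peaks, against 2.19% of all combined peaks. There were 10 regions (1.86%, 0.895 to 3.39) with no peak in either, against 35.7% of all combined peaks. The combined list was made from the same libraries and a wider region has more room for overlaps, so these shares describe the regions and test nothing.

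More regions were split in replicate 1 than in replicate 2, with overlapping intervals. Replicate 1 had 2 or more peaks in 93 regions (17.3%, 14.2 to 20.8), against 1.78% of all combined peaks. Replicate 2 had them in 64 (11.9%, 9.28 to 14.9), against 1.09%, and 43 regions were split in both. Replicate 1 also listed more peaks, 4082 against 2867. The pieces lay close together, which follows in part from the choice, since only gaps inside a single combined region were counted. Consecutive replicate 1 peaks inside a region were separated by a median of 306.5 bp over 100 gaps, with 81% at most 500 bp. In replicate 2 the median was 305 bp over 65 gaps, with 81.5% at most 500 bp. The shortest separation of any neighbouring peaks was 200 bp in the combined and replicate 1 lists and 201 bp in that of replicate 2.

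The share of split regions was higher in each wider class. Several peaks in at least 1 replicate were seen in 41 of 345 regions under 1500 bp (11.9%, 8.66 to 15.8). The share was 25% (17.4 to 33.9) of those from 1500 to under 2000 bp, 51.9% (37.6 to 66.0) of those from 2000 to under 3000 bp and 68% (46.5 to 85.1) of those of 3000 bp or more. Of the 25 widest regions, 12 were split in both replicates and 8 were a single peak in each. All 25 overlapped a peak in both replicates.

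**Figure D2:**
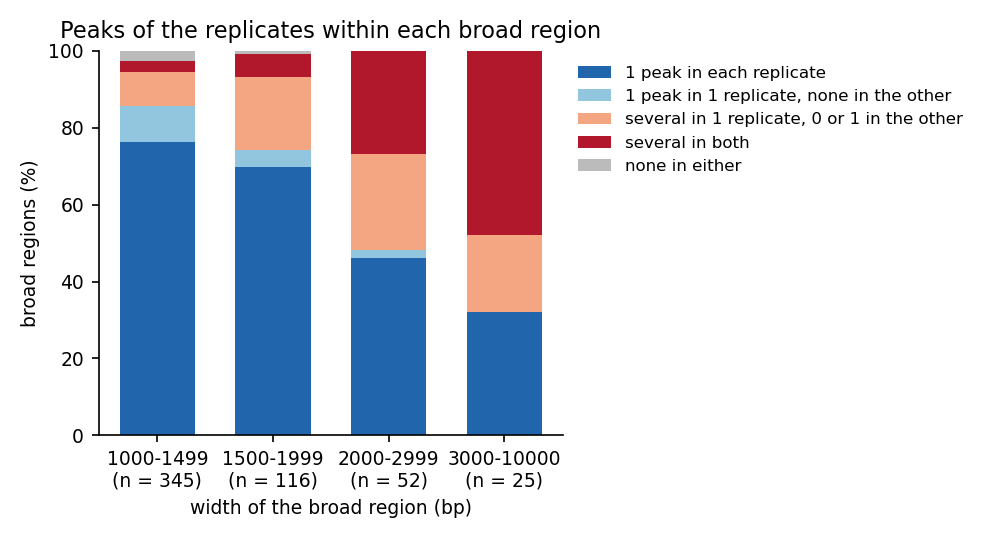
Share of the broad regions (vertical axis, percent) by the number of replicate peaks within them, for 4 classes of width (horizontal axis, bp, with n). The share with 1 peak in each replicate goes from 76.2% in the narrowest class to 32% in the widest, and the share split in both from 2.9% to 48%.

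The share of split regions was lower on X than on the autosomes in replicate 1. On X, 13 of 109 broad regions (11.9%, 6.51 to 19.5) were split in at least 1 replicate, against 101 of 429 on the autosomes (23.5%, 19.6 to 27.8). In replicate 1 alone, 8.26% (3.85 to 15.1) were split on X and 19.6% (15.9 to 23.7) on the autosomes. In replicate 2 alone it was 8.26% (3.85 to 15.1) and 12.8% (9.81 to 16.4), with overlapping intervals. No replicate 1 peak was listed in 10.1% of the broad regions of X (5.15 to 17.3) and 3.497% of those of the autosomes (1.97 to 5.70), with overlapping intervals. By chromosome, the share split in at least 1 replicate was 14.3% (7.83 to 23.2) on I and between 23.3% and 27.4% on II, III, IV and V. In replicate 1 alone I had 10.99% (5.40 to 19.3), close to X, and II, III, IV and V had between 20.2% and 24.7%. None of the 33 broad regions with a −log10 q under 10 was split, and 15 of them lay on X. The median width of the broad regions was 1367 bp on X and 1321 bp on the autosomes.

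Many broad regions did not reach 1 kb in either replicate. The regions were chosen by their combined width, and the replicate peaks had no limit to pass. The shares and widths given here follow in part from this choice. The longest replicate peak in the region was at least 1000 bp in both replicates for 171 regions (31.8%, 27.9 to 35.9), in replicate 1 only for 41 (7.62%) and in replicate 2 only for 120 (22.3%). In the other 206 regions (38.3%, 34.2 to 42.5) no replicate peak was that wide. Of those 206, 159 overlapped a peak in both replicates and 45 were split in at least 1. They were narrower and weaker than the regions broad in both replicates, with a median width of 1160 bp against 1693 bp and a median −log10 q of 20.1 against 101.8.

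Where each replicate had 1 peak, the combined region was usually the wider. Over these 376 regions the combined regions had a median width of 1300 bp, the replicate 1 peaks 952 bp and the replicate 2 peaks 1074.5 bp. The combined region was wider than either replicate peak in 319 of them (84.8%). This follows in part from the choice of regions by combined width, a limit that the replicate peaks did not have to pass. The whole stretch spanned by the pair of replicate peaks had a median of 1141.5 bp, which is also below the combined width. Centres of the pair lay a median of 83.2 bp apart. Replicate 2 had the wider peak in 66.2% of the pairs, while replicate 1 had the lower q in 65.4%. Over all 538 broad regions, including those with no peak in the replicate, replicate 1 peaks covered a median of 69.3% and replicate 2 peaks 79.6%. Over regions with 1 peak in the replicate, the medians were 72.5% for replicate 1 (n = 419) and 84.2% for replicate 2 (n = 438).

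The widest regions show both kinds of structure. The widest lay on X from 8017372 to 8024177 (6806 bp, −log10 q of 51.7). Replicate 1 had 2 peaks there, of 3030 and 2463 bp with −log10 q of 19.3 and 13.3, and replicate 2 had 2 of 1083 and 2422 bp with 13.3 and 8.82. Neither replicate held this region as 1 peak.

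The next widest lay on chromosome II from 11615618 to 11621841 (6224 bp, −log10 q of 74.9). It held 2 peaks in each replicate, of 852 and 1623 bp in replicate 1 and of 2410 and 1946 bp in replicate 2. In replicate 1 these were separated by 2820 bp, the longest separation within any broad region. The second of them was the stronger in both replicates, with −log10 q of 25.4 against 5.20 in replicate 1 and 35.7 against 12.5 in replicate 2.

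The third, on X from 6740431 to 6746020 (5590 bp, 86.4), differed between the replicates. Replicate 2 had a single peak of 5563 bp over nearly the whole region (−log10 q of 45.01), whereas replicate 1 had 2 peaks of 1036 and 2878 bp with 11.8 and 24.99. This was the widest broad peak of replicate 2.

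Other wide regions were dominated by 1 strong piece. On III from 13462384 to 13467126 (4743 bp, 201.0), replicate 1 had a peak of 3252 bp with a −log10 q of 95.2 beside one of 730 bp with 27.5. Replicate 2 had the same arrangement, with 3089 bp and 81.2 beside 1378 bp and 13.4. On I from 9379541 to 9384207 (4667 bp, 179.0), the pieces had 46.6 and 16.0 in replicate 1 and 53.0 and 20.3 in replicate 2. In both regions the stronger piece was the one of lower coordinate in either replicate.

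A region on III from 831946 to 836381 (4436 bp, 150.6) held 3 peaks in replicate 1 (−log10 q of 3.503, 93.0 and 32.5) and 2 in replicate 2 (28.5 and 25.4). On X from 6252063 to 6255998 (3936 bp, 75.8) there were again 3 and 2. No broad region held more than 5 replicate peaks in all. The other 3 regions with 5 were narrower, on III from 11693587 to 11695431 (1845 bp), IV from 11914664 to 11916065 (1402 bp) and V from 19993242 to 19994607 (1366 bp). In these 3 every replicate peak was at most 732 bp wide.

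Some wide regions were continuous in both replicates. On V from 6225933 to 6230024 (4092 bp, 165.8), replicate 1 had a peak of 3181 bp with a −log10 q of 64.7 and replicate 2 one of 3808 bp with 80.4. On II from 11634020 to 11637814 (3795 bp, 157.7), the peaks were 3975 and 3585 bp wide with 73.8 and 68.3. By contrast, the region on II from 6345259 to 6349061 (3803 bp, 107.7) was a single peak only in replicate 1, of 2491 bp. Replicate 2 had 1 of 503 bp and 1 of 2505 bp there. The widest region of chromosome IV, from 3231632 to 3234860 (3229 bp, 147.4), was 1 peak in each replicate, of 2162 and 2932 bp.

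The 10 regions without any replicate peak were weak. Their widths were 1057 to 1963 bp and their −log10 q values 3.93 to 15.1, and 6 of them lay on X. They made up 5.50% of the broad regions of X (2.05 to 11.6) and 0.932% of those of the autosomes (0.255 to 2.37), with overlapping intervals. Of the remaining peaks, 42.8% on X (39.2 to 46.5) and 38.2% on the autosomes (36.9 to 39.6) had no replicate peak. The widest was on II from 11976141 to 11978103 (1963 bp, 11.2). The next were on X from 5116558 to 5117924 (1367 bp, 6.74) and from 3816288 to 3817623 (1336 bp, 9.25).

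X carried the largest number of broad regions and the largest share of broad regions among its peaks. It held 109 of the 538 (20.3%, 16.9 to 23.9), against 736 of the 5795 remaining peaks (12.7%, 11.9 to 13.6) and 13.3% of all combined peaks. The difference was 7.56 percentage points (Newcombe 95% interval 4.26 to 11.3, counting error only). Broad replicate peaks with no combined peak, 16 in replicate 1 and 29 in replicate 2, were all autosomal. The combined counts leave them out, which lowers the autosomal number. Of the combined peaks on X, 12.9% were broad (10.7 to 15.3), against 7.82% on the autosomes (7.12 to 8.56). Chromosome II had 9.55% and the other autosomes between 7.37% and 7.78%, and the intervals of the 5 autosomes overlapped one another. The interval of II (7.56 to 11.9) also overlapped that of X.

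X also had the highest share in each replicate. In replicate 1 it was 10.97% on X (8.33 to 14.1) against 5.14% on the autosomes (4.44 to 5.91). In replicate 2 it was 16.5% on X (13.1 to 20.5) against 11.8% (10.5 to 13.1), with intervals that overlapped slightly. In replicate 2, chromosomes I and II came close to X, with 15.1% and 15.4% and intervals that overlapped that of X. In replicate 1 the intervals of I (4.78 to 8.48) and II (4.12 to 8.63) overlapped that of X slightly. An earlier analysis of these lists had found peaks on X to be wider on the whole, so this is no independent result. The broad regions of X were not stronger, with a median −log10 q of 26.5 against 39.7 on the autosomes.

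**Figure D3:**
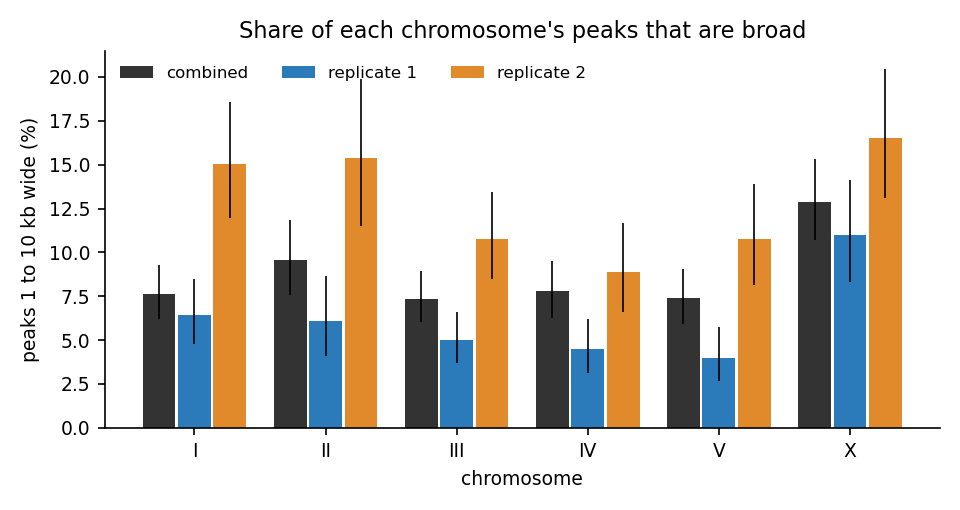
Share of each chromosome's peaks that are 1 to 10 kb wide (vertical axis, percent) in the combined list and in each replicate list, with exact 95% intervals as error bars. X is the highest in all 3 lists, at 12.9%, 10.97% and 16.5%.

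Per length of chromosome the order was different. Chromosome III had 6.90 broad regions per Mb, X 6.16, I 6.04, IV 4.94, II 4.78 and V 4.02, over the length spanned by peaks. For the remaining peaks, by contrast, III had 86.7 and X had the lowest density at 41.6 per Mb. Broad regions covered 1.04% of the span of III and 1.01% of that of X, and from 0.618% to 0.898% of the other 4.

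Along X the broad regions were concentrated in 1 stretch. When the span was divided into 10 equal parts, the fifth, from 7086855 to 8855791, held 25 of the 109 (22.9%, 15.4 to 32.0) and 56 of the 736 remaining X peaks (7.61%, 5.80 to 9.77). In replicate 1 the shares were 14 of 53 (26.4%, 15.3 to 40.3) against 9.30% (6.73 to 12.5). In replicate 2 they were 13 of 69 (18.8%, 10.4 to 30.1) against 10.3% (7.35 to 14.0), with overlapping intervals. The stretch was singled out after its values were seen and has the highest share among the 10 parts of X and the 10 of the pooled autosomes. Pooling can level out a stretch on 1 autosome, and single autosomes were not divided in this way. On V, the window from 19 to 20 Mb alone held 15 of 84 broad regions, so a concentration of this kind is not shown to be particular to X. Outside it, 10.99% of the X peaks were broad (84 of 764, 8.87 to 13.4), which is still above the 7.82% of the autosomes.

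Counted in windows of 1 Mb that held a combined peak, the median was 5 broad regions over 102 windows, and 9 windows held 10 or more. The most were 15 on V from 19 to 20 Mb, then 13 on X from 7 to 8 Mb and 12 each on IV from 11 to 12 Mb and on X from 8 to 9 Mb. In both X windows broad regions made up 28.9% and 28.6% of the combined peaks, against 19.7% in the window on V. Of these windows, 3 had no broad region, on II from 15 Mb and on V from 15 to 16 and from 17 to 18 Mb. The end of I from 15 Mb held no combined peak and was not counted.

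On the autosomes, whether the broad regions of the combined list were shifted towards the ends depended on where the outer parts were taken to begin. The outer 25% of the span at either end held 214 of 429 (49.9%, 45.1 to 54.7), against 49.0% of the remaining peaks (47.6 to 50.3) and 49% of all autosomal combined peaks. The difference was 0.921 points (Newcombe interval −3.99 to 5.83). With the outer 33% at either end it was 5.29 points (0.574 to 9.69), from 69.0% against 63.7%, and with the outer 20% it was 0.161 points (−4.54 to 5.04). Both replicate lists gave larger differences at 25%. In replicate 1, 121 of 185 broad autosomal peaks lay in the outer parts (65.4%, 58.1 to 72.2) against 53.0% of the remaining. In replicate 2 it was 179 of 289 (61.9%, 56.1 to 67.6) against 49.5%. With only those replicate peaks that overlap a combined peak the shares were 62.1% (54.4 to 69.5) and 57.7% (51.4 to 63.8), between those of the full replicate lists and that of the combined list. On X the outer parts held 41.3% of the broad regions (31.9 to 51.1) and 51.8% of the remaining peaks, a difference of −10.5 points (Newcombe interval −20.0 to −0.426). It was −17.8 points (−30.5 to −3.58) in the list of replicate 1 and −1.89 points (−14.4 to 10.8) in that of replicate 2.

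**Figure D4:**
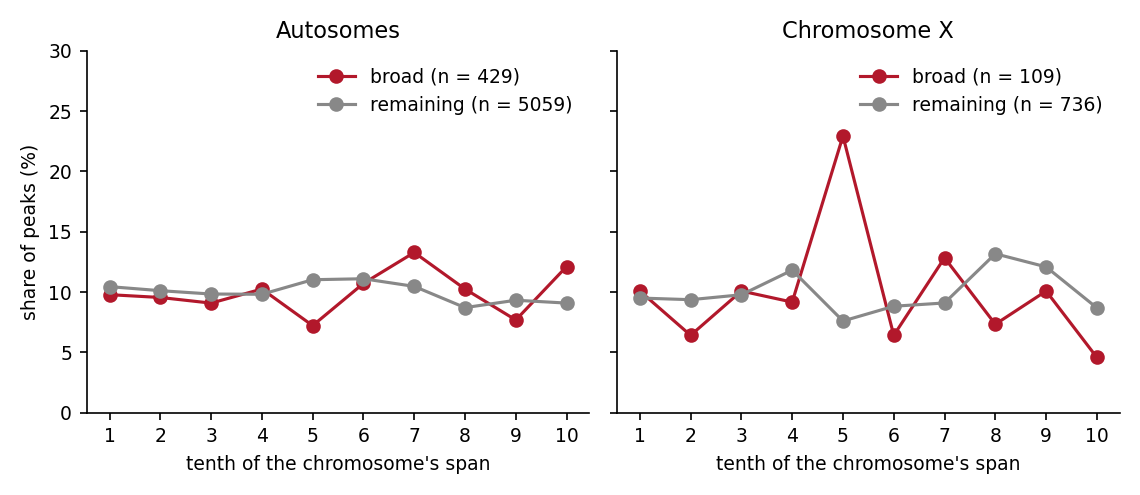
Share of the broad regions and of the remaining combined peaks (vertical axis, percent) in each of 10 equal parts of a chromosome's span (horizontal axis), for the 5 autosomes pooled and for X. The broad regions of X stand at 22.9% in the fifth part, against 7.61% for the remaining peaks.

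The position of a broad region went with its strength. Among autosomal regions with a −log10 q under 10, 5 of 18 lay in the outer parts (27.8%, 9.69 to 53.5). The share was 36.7% (30.6 to 43.1) from 10 to 50, 61.2% (51.9 to 69.9) from 50 to 150, and 47 of 50 (94.0%, 83.5 to 98.7) at 150 or more. Remaining peaks showed the same order, with 46.8%, 51.3% and 81.2% in the first 3 classes, and 4 of 4 in the last. An earlier analysis of these lists had already found the strongest peaks towards the ends.

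In the middle class of strength the broad regions of the combined list lay more centrally. Between a −log10 q of 20 and 100, 108 of 233 autosomal broad regions were in the outer parts (46.4%, 39.8 to 53.0), against 367 of 559 remaining peaks (65.7%, 61.6 to 69.6). The difference was −19.3 points (Newcombe interval −26.7 to −11.7). Replicate 1 gave 57.3% (46.4 to 67.7) against 71.8% (66.7 to 76.5), and replicate 2 gave 62.2% (54.1 to 69.8) against 70.7% (63.5 to 77.2), where the intervals overlap. Below 20 the outer parts held 30.3% (21.5 to 40.4) of the broad regions against 46.7% (45.2 to 48.2) of the remaining peaks in the combined list. The replicates gave 39.0% (24.2 to 55.5) against 50.8% (49.0 to 52.6) and 39.8% (29.2 to 51.1) against 47.5% (45.3 to 49.7), with overlapping intervals. At 100 or more it was 76 of 97 (78.4%) against 17 of 18 in the combined list, 54 of 55 against 9 of 9 in replicate 1 and 49 of 50 against 1 of 1 in replicate 2, so nearly all such replicate peaks were in the outer parts in either set. The strengths within a class were not matched further. The replicate lists were not independent of the combined list, and q and width come from the same call.

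By width no class stood apart beyond its interval. Of the autosomal regions of 3000 bp or more, 6 of 20 lay in the outer parts (30%, 11.9 to 54.3). The share was 48.9% under 1500 bp, 56.5% from 1500 to under 2000 bp and 51.4% from 2000 to under 3000 bp.

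Width and strength were related among the broad regions. Spearman's rho between width and −log10 q was 0.34 over the 538 broad regions, 0.30 over 238 in replicate 1 and 0.44 over 358 in replicate 2. The limits on width restrict its range, so these values are not compared with those of other peaks. These are correlations across peaks of the same libraries and are a description. The median −log10 q was 37.7 for broad regions and 6.52 for the remaining peaks, and broad regions ranged from 3.93 to 323.3.

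The combined list may lack some of the strongest stretches, since broad replicate peaks of up to 4734 bp with very low q had no combined peak. No list holds a q of 0, and the highest −log10 q in the combined list (323.3) is at the limit of the number format. Whether peaks with a lower q were left out was not tested. Among the broad regions listed, the 6 of lowest q were 1539 to 2684 bp wide and each was 1 peak in both replicates. The first, on X from 2996089 to 2997783 (1695 bp), stood alone, with the next combined peaks 24025 and 38070 bp away. The strongest on I, from 693557 to 695095 (1539 bp), had a combined peak 851 bp away and a −log10 q of 307.9, with 224.0 and 119.0 for its replicate 1 and replicate 2 peaks. On IV from 2235799 to 2237366 (1568 bp), with 305.4, 208.9 and 130.2, combined peaks lay 267 and 444 bp to either side.

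Broad regions had other peaks close by more often than the remaining peaks did. The next combined peak, measured from edge to edge, was within 2 kb for 351 of 538 (65.2%, 61.0 to 69.3), against 41.5% of the remaining peaks (40.2 to 42.8) and 43.5% of all combined peaks. The difference was 23.7 points (Newcombe interval 19.4 to 27.8). The median gap was 1212 bp (quartiles 480 and 3106), against 2820 bp (909 and 7705). The share was higher for broad regions on 6 of 6 chromosomes in each list. Replicate 1 gave 54.6% (48.1 to 61.1) against 34.7%, and replicate 2 gave 48.0% (42.8 to 53.4) against 29.8%.

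The result depended on measuring between edges. Between centres, 37.2% of broad regions and 35.5% of remaining peaks had another centre within 2 kb, a difference of 1.64 points (Newcombe interval −2.52 to 5.98). A wide region takes up part of that distance itself, so its edge is nearer to a neighbour at the same distance between centres. How much of the edge-to-edge difference this accounts for was not tested.

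The nearness did not follow strength among broad regions. The share with a peak within 2 kb was 69.7% at a −log10 q under 10, 66.4% from 10 to 50, 60.7% from 50 to 150 and 67.7% at 150 or more, with overlapping intervals. Among the remaining peaks it was 39.6%, 45.03% and 56.8% in the first 3 classes, and 4 of 6 in the last. From 50 to 150 the intervals of broad regions (52.2 to 68.7) and remaining peaks (48.2 to 65.2) overlapped. At 100 or more it was 72 of 116 broad regions (62.1%) against 14 of 21 remaining peaks (66.7%), so no excess was seen there. Replicate 1 gave 33 of 67 against 7 of 11 at 100 or more, and replicate 2 gave 23 of 61 against 1 of 3. By width, the share among broad regions was 62.9% (57.6 to 68.0) under 1500 bp and 69.0% (59.7 to 77.2) from 1500 to under 2000 bp. It was 63.5% (49.0 to 76.4) from 2000 to under 3000 bp and 84% (63.9 to 95.5) for 3000 bp or more, with no steady order. Peaks within 2 kb on both sides were found for 88 broad regions (16.4%, 13.3 to 19.8), against 8.35% of the remaining peaks. Only 40 broad regions (7.43%) were more than 10 kb from any other combined peak, against 19.3%.

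**Figure D5:**
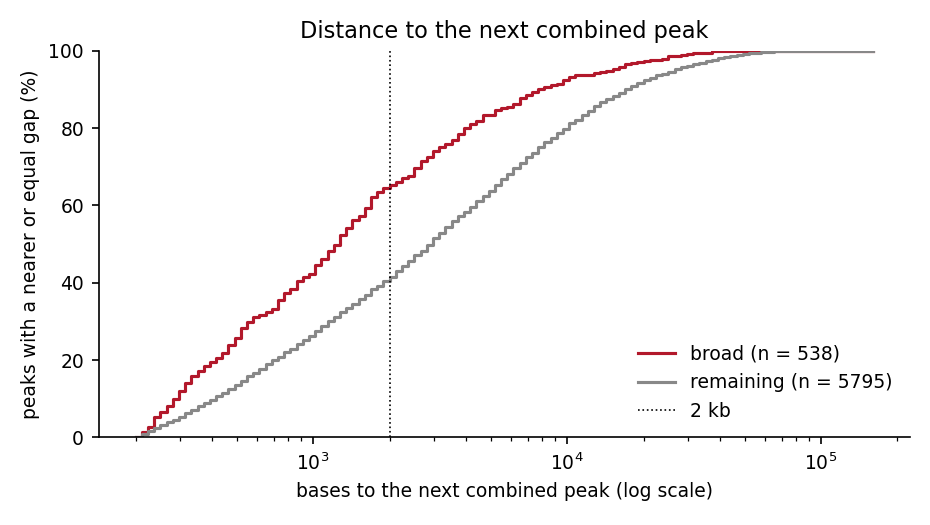
Share of peaks (vertical axis, percent) whose next combined peak lies at or within a given distance from edge to edge (horizontal axis, bp, log scale), for broad regions and remaining peaks. At 2 kb the curves stand at 65.2% and 41.5%.

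The peak next to a broad region was itself broad more often. It was broad for 105 of 538 (19.5%, 16.2 to 23.1), against 8.28% of the remaining peaks (7.59 to 9.02). In the list of replicate 1 this held for 15.5% against 6.17%, and in that of replicate 2 for 24.9% against 12.3%. Its median width was 536 bp beside a broad region and 406 bp beside a remaining peak. Another broad region lay within 5 kb of 150 broad regions (27.9%, 24.1 to 31.9), and of 11.9% of the remaining peaks. The next peak and these distances were again taken from edge to edge, so a region's own width takes up part of the distance. The shares in this paragraph and the runs below were not recomputed between centres.

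These 150 formed 63 runs in which each broad region was within 5 kb of the next, while 388 stood alone. There were 43 runs of 2, 16 of 3 and 4 of 4. The longest run of 4 lay on V from 19106587 to 19122451, with regions of 1404, 2791, 1190 and 1737 bp and −log10 q of 155.0, 252.6, 109.0 and 96.3, and 3 narrower peaks between them. Its weakest member was stronger than the weakest of any other run of 4. A run on X from 8014305 to 8029764 had no narrower peak between its members and included the widest region of all. Its 4 members, of 2087, 6806, 2000 and 1299 bp, covered 12192 of its 15460 bp, with −log10 q of 22.6, 51.7, 7.02 and 25.03. The region of the fourth lowest q, on X from 8035461 to 8037084 (1624 bp, 314.4), began 5696 bp beyond this run.

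The other runs of 4 were on X from 7814466 to 7827009, with members of 1046 to 1812 bp and −log10 q of 8.72 to 105.1, and on II from 8125878 to 8134923, with 1033 to 1856 bp and 8.88 to 25.9. Both X runs fell in the fifth part of the chromosome described above. The longest run of 3 lay on III from 7723507 to 7738248, with regions of 1487, 3047 and 2200 bp and −log10 q of 19.0, 46.0 and 61.1.

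Broad peaks of a replicate were mostly found again as broad regions. Of the 238 in replicate 1, 217 (91.2%, 86.8 to 94.5) overlapped a broad region, 5 a narrower combined peak and 16 (6.72%, 3.89 to 10.7) no combined peak. Of the 358 in replicate 2, 299 (83.5%, 79.3 to 87.2) overlapped a broad region, 30 a narrower combined peak and 29 (8.10%, 5.49 to 11.4) no combined peak. The broad replicate peaks with no combined peak were far stronger than those with a broad region. Their median −log10 q was 267.4 against 39.4 in replicate 1 and 201.0 against 28.3 in replicate 2. They were also wider, with medians of 1950.5 against 1284 bp and 2500 against 1306 bp, and all 16 and all 29 lay in the outer parts of autosomes. So did 54 of 55 broad autosomal peaks of replicate 1 with a −log10 q of 100 or more, and 49 of 50 in replicate 2. These counts include most of the peaks without a combined peak. All 16 and 18 of the 29 overlapped a peak of the other replicate, so the 2 sets share many stretches.

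Among them, the 5 of lowest q in replicate 2 were 2079 to 4032 bp wide. Those on I from 11531539 to 11534958 (3420 bp, −log10 q of 319.9), II from 12300169 to 12304200 (4032 bp, 317.9), IV from 1407242 to 1409918 (2677 bp, 303.2) and III from 1583070 to 1585148 (2079 bp, 296.8) had no peak listed in replicate 1. Since no list holds a q of 0, peaks with a q under the number format may not be listed, so a missing entry does not show that binding was absent. The one on I from 646926 to 650207 (3282 bp, 295.1) overlapped 2 replicate 1 peaks, the stronger of 896 bp with a −log10 q of 39.2. In replicate 1, the 5 of lowest q all overlapped a replicate 2 peak, and the one on IV from 999272 to 1000956 (1685 bp, 286.6) met a replicate 2 peak of 1979 bp with 214.9. The 538 broad regions therefore leave out some of the widest and strongest stretches of the replicate lists.

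Gene names and sequences of the regions are not given, because an annotation and a genome of the files' build were not used here.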

How the data were processed

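Per the file headers, coordinates are on WormBase release WS180, and they are 1-based as deposited. The caller column of the deposited lists names PeakSeq. The authors deposited a q-value for each peak, which is a p-value adjusted for multiple testing; −log10 q was computed from its decimal text. The sources used here give neither the aligner and caller settings nor how both replicates became a combined list. Larvae were fixed with 2% formaldehyde, per the labels' protocols, which do not state whether separate cultures were used, so replicate differences may be technical.

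Replicate lists were overlapped with the combined list at 1 bp or more. Chromosome length was taken as the span of all peaks in the 3 lists. Intervals are exact 95% binomial intervals, or Newcombe intervals for differences (statsmodels 0.14.6), and cover counting error only. Depth is unknown. Overlaps, gaps and positions were checked on simulated peaks. Named regions were the widest, the strongest, those with the most or no replicate peaks, those nearest the limits, the longest runs, and the strongest broad replicate peaks with no combined peak. Computations used Python 3.11.15, pandas 2.3.3 and SciPy 1.17.1. Regions, lists and rules were chosen with earlier results of these data known.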

Additional observations from a re-analysis of the deposited data

How the results depend on the processing

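Of 123 values recomputed under an alternative, 78 stayed within the 95% interval (counts: within 1.5 times) of the reported value and 45 moved outside it. The cause was not tested. The strength limits of 20 and 100 and the 50 bp limit were chosen after the data were seen. The share on X minus that of the remaining peaks stayed within its interval under all 9 alternatives (5.40 to 11.1 points). A width limit of 800 bp gave 899 regions, 14.6% of them split and 5.12% without a replicate peak; 1500 bp gave 193 regions, with 58.5% single in both replicates, 37.8% split and 0.518% without a replicate peak. With only the 50% of replicate peaks of lowest q, 9.67% were split and 11.3% had none. In the 50% of combined peaks of lowest q, broad shares were 14.3% (I), 20.2% (II), 13.5% (III), 15.3% (IV), 16.1% (V) and 25.3% (X), and the difference in peaks within 2 kb was 18.2 points. That difference was 16.2 points at 1 kb, 1.64 between centres, 16.0 at a −log10 q of 20 or more and 17.5 from 20 to under 100. For a chromosome, the difference is its share of the broad regions minus its share of the remaining peaks. In the combined list it was −2.12 points for I (−5.23 to 1.42) and −2.95 for III (−6.12 to 0.650). It was −1.60 for IV (−4.62 to 1.87) and −2.54 for V (−5.54 to 0.909). At 20 or more this difference was −7.84 points for I and 2.17 for V, and that for the autosomal outer parts was −10.8. From 20 to under 100 it was −7.81 for I, −6.71 for III and 1.80 for V, and −19.3 for the outer parts. With either replicate left out, so that the other's own list was used, the values ranged as follows. Region numbers were 238 to 358. Differences ran from 2.01 to 3.97 points for I, −6.04 to −4.57 for IV, −5.69 to −2.61 for V, 12.4 to 12.5 for the outer parts and 18.2 to 20.0 for peaks within 2 kb. Broad shares ran from 6.45% to 15.1% on I, 6.09% to 15.4% on II, 5.02% to 10.8% on III, 4.48% to 8.90% on IV, 4.01% to 10.8% on V and 10.97% to 16.5% on X. No paired analysis was possible because peak lists were used for the ChIP group alone, and no test was made. Without read counts, whether a gap inside a region lacked signal or fell short of the caller's threshold cannot be told apart.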
